A study of Mus musculus with 9 samples.

Results

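The kynurenine pathway genes are 5 enzymes of tryptophan breakdown (Ido1, Afmid, Kmo, Kynu and Haao) and Ahr, a receptor for several of its products. They were taken as every probe set whose single annotated symbol was 1 of these 6, which gave 11 probe sets of 6 genes among the 34945 probe sets and 18193 genes that carried a single symbol. The group was chosen by the measured levels of Kynu, which were higher with both hedgehog ligands than with Vehicle, and the other 5 genes were added for their place in the pathway. The differences of members between ligand and Vehicle are therefore described and not tested.

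Expression was measured on 9 Affymetrix arrays of mesenchyme from the small intestine of C57Bl/6J mouse embryos at E18.5, freed of epithelium and grown on collagen matrix. After 48 h in culture, 3 samples each received Sonic hedgehog ligand (Shh), Indian hedgehog ligand (Ihh) or Vehicle for 24 h. Each replicate was a random pool of the 6 wells that a treatment had, so p-values cover only the spread between such pools, which may be technical. The sources used here give neither the dose of a ligand nor the composition of Vehicle. The question was which mesenchymal genes answer to hedgehog, which in the gut passes from epithelium to the tissue beneath it.

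The kynurenine pathway is the main route by which cells break down the amino acid tryptophan. Ido1, like its relatives Ido2 and Tdo2, opens the indole ring to N-formylkynurenine, and Afmid takes off the formyl group to give kynurenine. Kmo hydroxylates kynurenine to 3-hydroxykynurenine, Kynu (kynureninase, which needs vitamin B6) cleaves it to 3-hydroxyanthranilic acid, and Haao carries that towards quinolinic acid and NAD. In a side branch, aminotransferases turn kynurenine into kynurenic acid. Kynurenine and kynurenic acid can bind Ahr, the aryl hydrocarbon receptor, a transcription factor that also senses diet and microbial indoles in the gut. Ido1 is best known as an enzyme that interferon-gamma induces in myeloid cells, where local loss of tryptophan restrains T cells.

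All levels are deposited log2 expression values, in which 1 unit is a doubling. The array medians lay between 5.87 and 5.92 log2 and served as a working mark, not as a measured background. Levels near background may be compressed, so that a difference under the mark may be understated, which was not tested. Over probe sets, which are not independent replicates, Pearson's r of any 2 arrays was at least 0.991. Mesenchyme and smooth muscle markers were present on every array, with a log2 of their summed level of 15.75 to 15.85 with Vehicle, 15.66 to 15.81 with Shh and 15.74 to 15.80 with Ihh, and 0 of the 12 lay below the mark on all arrays. Fewer cells of a type and less RNA per cell cannot be told apart in such bulk samples.

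Kynu was the member that separated the ligand arrays from the Vehicle arrays. Its brighter probe set (1430570_at) read 6.06, 5.86 and 5.90 log2 on the Vehicle arrays, 6.85, 7.13 and 7.36 on the Shh arrays and 7.21, 7.17 and 6.99 on the Ihh arrays. Each of the 6 ligand arrays lay above each Vehicle array, as in 2.67% of all genes, and the nearest arrays across the gap were Vehicle 1 and Shh 1. Vehicle arrays had a mean of 5.94 ± 0.11, Shh arrays 7.11 ± 0.25 and Ihh arrays 7.12 ± 0.12 (SD, n = 3 per group). In order of level, Vehicle was lowest, and Shh and Ihh were next to each other with a difference smaller than the spread within either group.

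The difference of Kynu from Vehicle was 1.18 ± 0.10 log2 for both ligands together (SE, 2.26-fold), the 7th highest of 18193 genes. Against the same Vehicle arrays it was 1.17 ± 0.12 for Shh, 2.26-fold, and 1.18 ± 0.12 for Ihh, 2.27-fold. These comparisons share their control arrays and are set side by side only. Vehicle 2 lay just below the mark (5.86 against an array median of 5.89), and whether the difference is understated was not tested. With each array left out in turn it ranged from 1.12 to 1.24 log2 for both ligands together.

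The other Kynu probe set (1451903_at) was dim and less clear. It read 3.90 to 4.24 log2 on the Vehicle arrays, 4.27, 4.38 and 4.48 with Shh and 4.20, 4.34 and 4.32 with Ihh, under the mark on all 9 arrays. The groups overlapped, since Ihh 1 lay below Vehicle 2, and 5 of the 6 ligand arrays lay above all Vehicle arrays. Its difference was 0.28 ± 0.08 log2 for both ligands (SE, 1.22-fold), in the direction of the first probe set. When a gene was measured by the mean of its probe sets, the difference of Kynu was 0.73 log2 in place of 1.18.

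**Figure D1:**
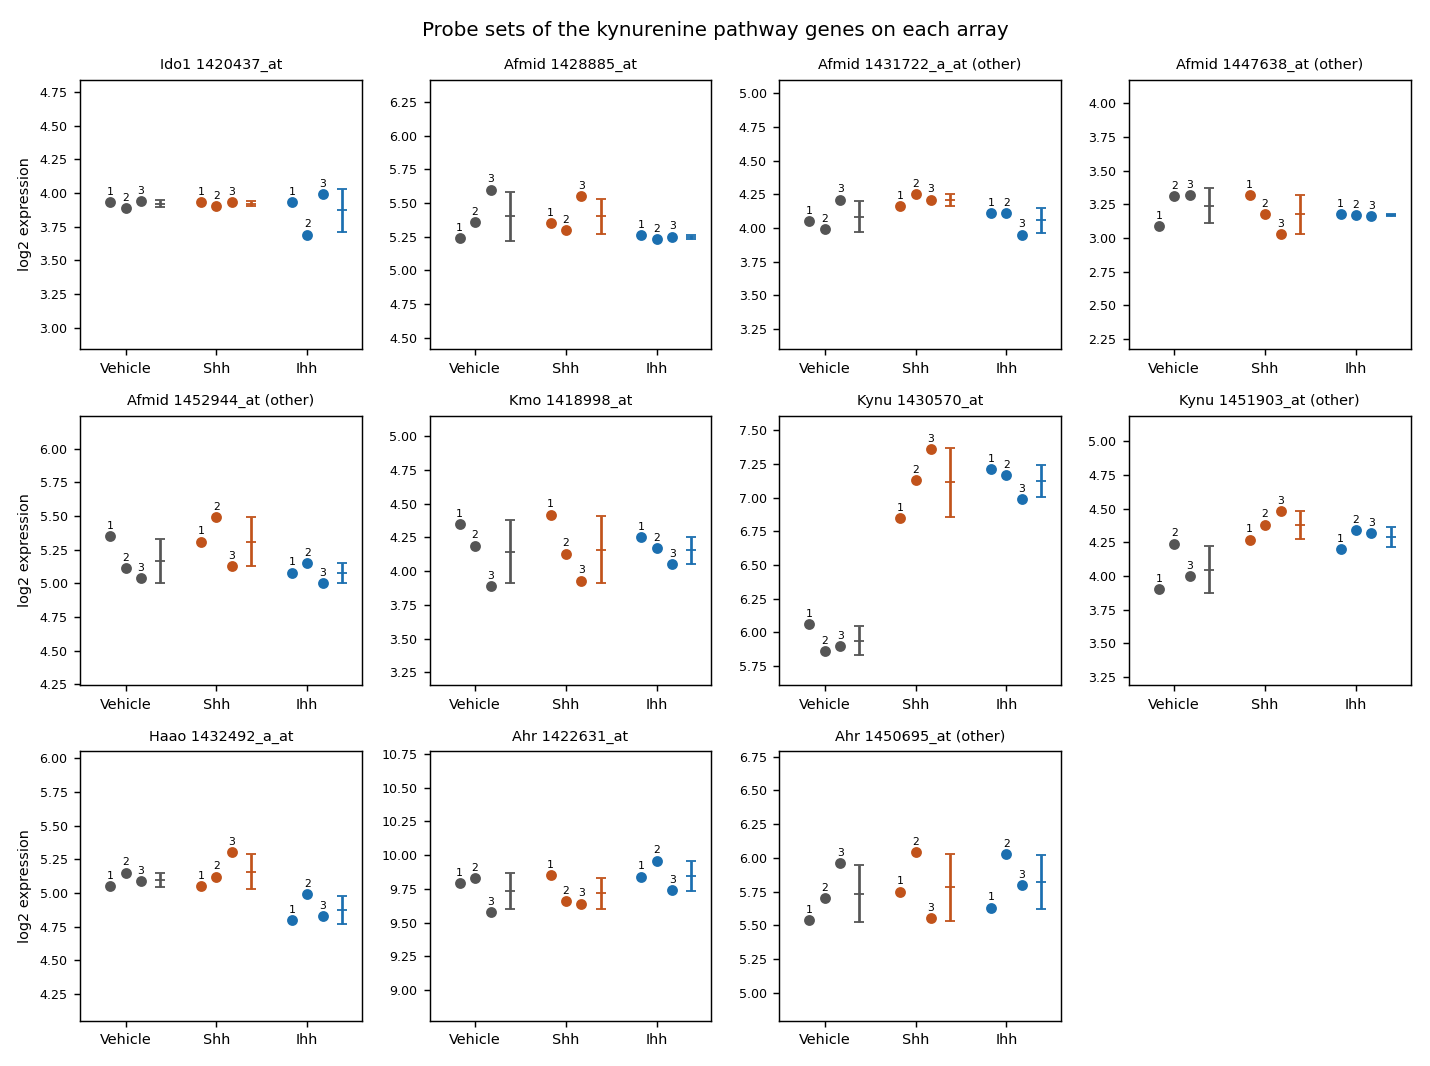
Log2 expression of the 11 probe sets of the 6 genes (1 panel each, in the order of the pathway, all panels spanning the same 2 log2 units) on the Vehicle, Shh and Ihh arrays, with points numbered by replicate and, beside them, the mean with an SD bar (n = 3). Only in the panel of the brighter Kynu probe set do all 6 ligand arrays (6.85 to 7.36) lie above all Vehicle arrays (5.86 to 6.06), and "other" marks the probe sets not used as the gene's measure.

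Ido1, which starts the pathway, was dim and its groups overlapped. It read 3.93, 3.89 and 3.94 log2 with Vehicle, 3.93, 3.90 and 3.93 with Shh and 3.93, 3.69 and 3.99 with Ihh, below the mark on all arrays. The Vehicle and Shh arrays lay within 3.89 to 3.94, and Ihh 2 was the lowest of the 9. The difference for both ligands was -0.02 ± 0.07 log2 (SE).

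Afmid, the formamidase of the next step, had 4 probe sets, all below the mark on every array. The brightest (1428885_at) read 5.24, 5.36 and 5.60 with Vehicle, 5.35, 5.30 and 5.55 with Shh and 5.26, 5.23 and 5.25 with Ihh. The ligand arrays overlapped with Vehicle, and the Ihh arrays lay close together at its lower end. The 4 probe sets differed by -0.08, 0.05, -0.07 and 0.03 log2 for both ligands, each within about 1 SE of 0, and so did not share a direction.

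Kmo, which makes the substrate of Kynu, had 1 probe set. It read 4.35, 4.19 and 3.89 log2 with Vehicle, 4.42, 4.13 and 3.93 with Shh and 4.25, 4.17 and 4.05 with Ihh. The 3 groups covered nearly the same span, with means of 4.15 ± 0.23, 4.16 ± 0.25 and 4.15 ± 0.10 (SD, n = 3 each). The difference was 0.01 ± 0.12 log2 for both ligands (SE), on a probe set that lay below the mark on all arrays.

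Haao, which acts on the product of Kynu, read 5.05, 5.15 and 5.09 log2 with Vehicle, 5.05, 5.12 and 5.30 with Shh and 4.80, 4.99 and 4.83 with Ihh, all below the mark. The Shh arrays overlapped with Vehicle, while all 3 Ihh arrays lay below all Vehicle arrays. Of all genes, 13.8% had Ihh arrays that lay entirely above or below the Vehicle arrays. Haao differed from Vehicle by 0.06 ± 0.08 log2 with Shh and by -0.22 ± 0.08 with Ihh (SE).

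Ahr was the member with values far above the mark. Its brighter probe set (1422631_at) read 9.79, 9.83 and 9.58 log2 with Vehicle, 9.85, 9.66 and 9.64 with Shh and 9.84, 9.96 and 9.74 with Ihh. The groups overlapped, and the difference for both ligands was 0.04 ± 0.08 log2 (SE). Its second probe set (1450695_at) spanned 5.54 to 6.04 log2 over the 9 arrays and differed by 0.07 ± 0.13.

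Counted by limma at an adjusted p of 0.05 over all genes, 1 of the 6 members was past the threshold in each ligand comparison, and it was Kynu each time, the gene that the choice was built on. The background was 1.51% of all genes for both ligands, 1.73% for Shh and 0.649% for Ihh. That background itself moved with single arrays: in place of 195 genes, 72 were called lower for both ligands without Vehicle 2 and 349 without Vehicle 3. Of the other 5 members, 0 were past it in any of these comparisons, and at an unadjusted p under 0.05 the count was 0 for both ligands, 0 for Shh and 1 for Ihh (Haao), beside 13.7%, 18.8% and 9.19% of all genes. Their differences for both ligands had sizes from 0.01 to 0.08 log2, beside a median size of 0.0607 over all genes.

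Shh and Ihh were then compared with each other, a contrast that played no part in choosing the genes. Of 18193 genes limma placed 2 past the threshold (0.011%), and 0 of the 6 members were among them, with 1 (Haao) at an unadjusted p under 0.05, beside 13.1% of all genes. Kynu differed by -0.01 log2 (95% interval -0.27 to 0.26, limma adjusted p = 0.982), which bounds the ratio of the ligands between 0.827-fold and 1.20-fold. The sign of this small difference turned without Shh 1, Ihh 1 or Ihh 2, and with each array left out in turn it lay between -0.13 and 0.12 log2.

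Haao had the most marked difference between the ligands among the members. It was 0.29 log2 higher with Shh (95% interval 0.11 to 0.46, unadjusted p = 0.00517), which did not pass over all genes (limma adjusted p = 0.29). All 3 Shh arrays (5.05 to 5.30) lay above all 3 Ihh arrays (4.80 to 4.99), and 17.3% of all genes had Shh and Ihh arrays that did not overlap. With each array left out in turn the difference of Haao stayed between 0.21 and 0.34 log2, at adjusted p of 0.246 to 0.641.

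The intervals of the other 4 members held 0. The difference of Afmid was 0.16 log2 (-0.06 to 0.37, limma adjusted p = 0.484), that of Ahr -0.13 (-0.33 to 0.07, adjusted p = 0.523), that of Ido1 0.05 (-0.12 to 0.22, adjusted p = 0.79) and that of Kmo 0.00 (-0.31 to 0.31, adjusted p = 0.993). With 3 arrays a group, differences up to these bounds remain possible in this fit. The other Afmid probe sets differed by 0.15, 0.01 and 0.23 log2 between the ligands, also above 0, and their intervals held 0. For Kmo the SE was 0.14, and 0.07 with the replicate number as a block. The sign of Ido1 turned without Ihh 2, and that of Kmo without Shh 1 or Ihh 3.

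**Figure D2:**
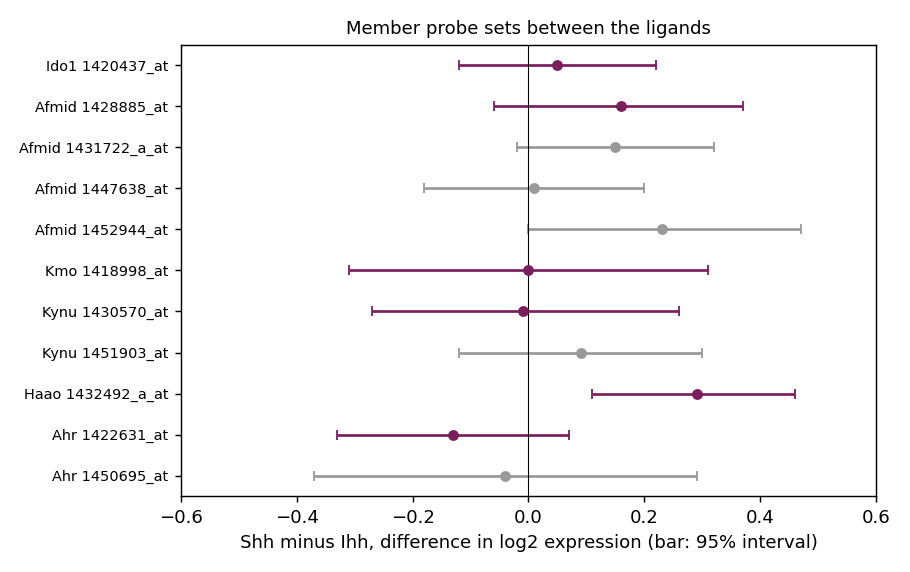
Difference between Shh and Ihh in log2 expression for each of the 11 probe sets, as a point with its 95% interval from limma (n = 3 arrays a group), purple for the probe set that measures the gene and grey for others. The interval of Haao (0.11 to 0.46) lies above 0 before adjustment, and Kynu (1430570_at) lies at -0.01.

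The rest of the pathway was read from lists of genes named for their roles. Of the other kynurenine pathway enzymes 7 of 8 were measured (Acmsd was not analysed here), and limma called 0 higher and 0 lower for both ligands, also 0 at an unadjusted p under 0.05. Their median difference was 0.02 log2 beside 0.00 for all genes, and the range was -0.06 to 0.08. Tdo2, the tryptophan dioxygenase best known from liver, read 4.02 to 4.13 with Vehicle and 4.09 to 4.33 with the ligands, a difference of 0.08 ± 0.05 log2 (SE, limma adjusted p = 0.6). Kyat1, an aminotransferase that makes kynurenic acid, differed by -0.06 ± 0.06 (adjusted p = 0.743). Ido2 differed by 0.00, and Qprt, which passes quinolinic acid on to NAD, by 0.02.

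Genes downstream of the pathway gave few differences. Of 8 NAD synthesis genes limma called 0 for both ligands, and the median was -0.01 log2. At an unadjusted p under 0.05, 2 were lower, beside 8.41% of all genes. These were Nadk, the kinase that turns NAD into NADP, and Nampt, which salvages nicotinamide. Nadk read 10.03, 9.95 and 9.94 log2 with Vehicle, 9.81, 9.65 and 9.78 with Shh and 9.74, 9.71 and 9.66 with Ihh. Its ligand arrays all lay below its Vehicle arrays, as was so, above or below, in 6.47% of all genes. Its difference of -0.25 ± 0.05 (SE, limma adjusted p = 0.0534) lay at the threshold and was not called. Under 4 alternatives it was called (adjusted p of 0.0328 to 0.0478). Each of the 9 fits without a single array left it uncalled (adjusted p of 0.0578 to 0.221). So did the replicate block (adjusted p = 0.0531) and testing every probe set singly (adjusted p = 0.0793). The mean of its probe sets gave a smaller difference of -0.16 log2, also uncalled (adjusted p = 0.104). Nampt read 8.96, 8.95 and 8.60 with Vehicle against 8.52 to 8.68 with the ligands. Its Vehicle 3 array lay among the ligand arrays, and its difference of -0.22 ± 0.08 (adjusted p = 0.236) was -0.34 without Vehicle 3 (adjusted p = 0.0185), with adjusted p of up to 0.624 when other arrays were left out.

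Vitamin B6 genes serve the cofactor of Kynu. Of 3 listed, 2 were measured and limma called 0, also 0 at an unadjusted p under 0.05. The kinase Pdxk differed by 0.08 ± 0.06 log2 (SE, adjusted p = 0.663) and the phosphatase Pdxp by -0.15 ± 0.09 (adjusted p = 0.502).

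Genes that Ahr is known to switch on had no calls. Of 7 Ahr target genes, limma called 0 for both ligands, also 0 at an unadjusted p under 0.05, with a median of 0.00 log2 beside 0.00 for all genes and a range of -0.08 to 0.12. Tiparp, a target that feeds back on Ahr, differed by 0.12 ± 0.07 (SE, adjusted p = 0.485). Cyp1a1, the classical target, read 4.66 to 4.91 log2 with Vehicle and 4.41 to 5.17 with the ligands, all under the mark. Cyp1b1, another cytochrome P450 target, read 8.12, 8.38 and 8.42 with Vehicle, 8.56, 8.42 and 8.65 with Shh and 7.87, 8.37 and 8.38 with Ihh, above the mark throughout. All its Shh arrays lay above all its Ihh arrays, and 17.3% of all genes had Shh and Ihh arrays that did not overlap. The difference between the ligands was 0.33 ± 0.14 log2 (SE, unadjusted p = 0.0361) and did not pass over all genes (limma adjusted p = 0.364). Cyp1b1 and Cyp1a2 (0.20, adjusted p = 0.319) were the 2 Ahr targets higher with Shh than with Ihh before adjustment, and 0 were lower. In either direction, 13.1% of all genes had an unadjusted p under 0.05 between the ligands. Of 5 partners of Ahr 2 were measured, and the dimer partner Arnt and its relative Arnt2 differed by -0.09 ± 0.07 (adjusted p = 0.647) and -0.03 ± 0.05 (adjusted p = 0.878). The partner list had 0 calls, and 0 at an unadjusted p under 0.05.

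Of 12 genes of tryptophan transport and other uses, 0 rose and 2 fell with both ligands, beside 1.07% of all genes called lower, and the list's median was 0.01 log2. Both were transporters that carry aromatic amino acids. Slc7a8, which exchanges neutral amino acids, read 6.30, 6.35 and 6.36 log2 with Vehicle, 5.91, 5.80 and 5.82 with Shh and 5.67, 5.35 and 5.68 with Ihh. The ligand arrays all lay below the Vehicle arrays, and 5 of them reached below the mark. Of all genes, 6.47% had ligand arrays that lay entirely above or below the Vehicle arrays. Slc7a8 fell by 0.63 ± 0.07 log2 (SE, limma adjusted p = 0.00318), by 0.49 with Shh and by 0.77 with Ihh. The difference of 0.28 between the ligands did not pass (adjusted p = 0.308).

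Slc16a10, which carries aromatic amino acids down their gradient, read 6.95, 6.76 and 6.71 log2 with Vehicle, 6.18, 6.39 and 6.24 with Shh and 6.25, 6.02 and 6.33 with Ihh. Again every ligand array lay below every Vehicle array, as was so, above or below, in 6.47% of all genes. Slc16a10 fell by 0.57 ± 0.09 log2 (SE, limma adjusted p = 0.0102), and the call ended without Vehicle 1 (adjusted p = 0.0602) or Vehicle 2 (adjusted p = 0.0515). Its 3 dimmer probe sets differed by -0.38, 0.00 and 0.00 log2. Slc7a5, the transporting chain of a major tryptophan exchanger, differed by 0.14 (adjusted p = 0.531) and its partner chain Slc3a2 by -0.05 (adjusted p = 0.854).

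None of the measured genes through which interferon-gamma induces Ido1 passed the test. Of 8 listed, 7 were measured, limma called 0, also 0 at an unadjusted p under 0.05, and the median was -0.02 log2. The kinases Jak1 and Jak2 differed by -0.12 (adjusted p = 0.458) and -0.10 (adjusted p = 0.523). Irf1, the factor that binds the Ido1 promoter, read 8.96 to 9.15 with Vehicle and 8.97 to 9.16 with the ligands. Ifng itself lay at 3.50 to 3.77 log2 on the 9 arrays, under the mark. Between Shh and Ihh, limma called 0 of all 45 genes measured in these lists, while before adjustment 4 were higher and 1 lower at p under 0.05, a count of 5 beside 13.1% of all genes.

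**Figure D3:**
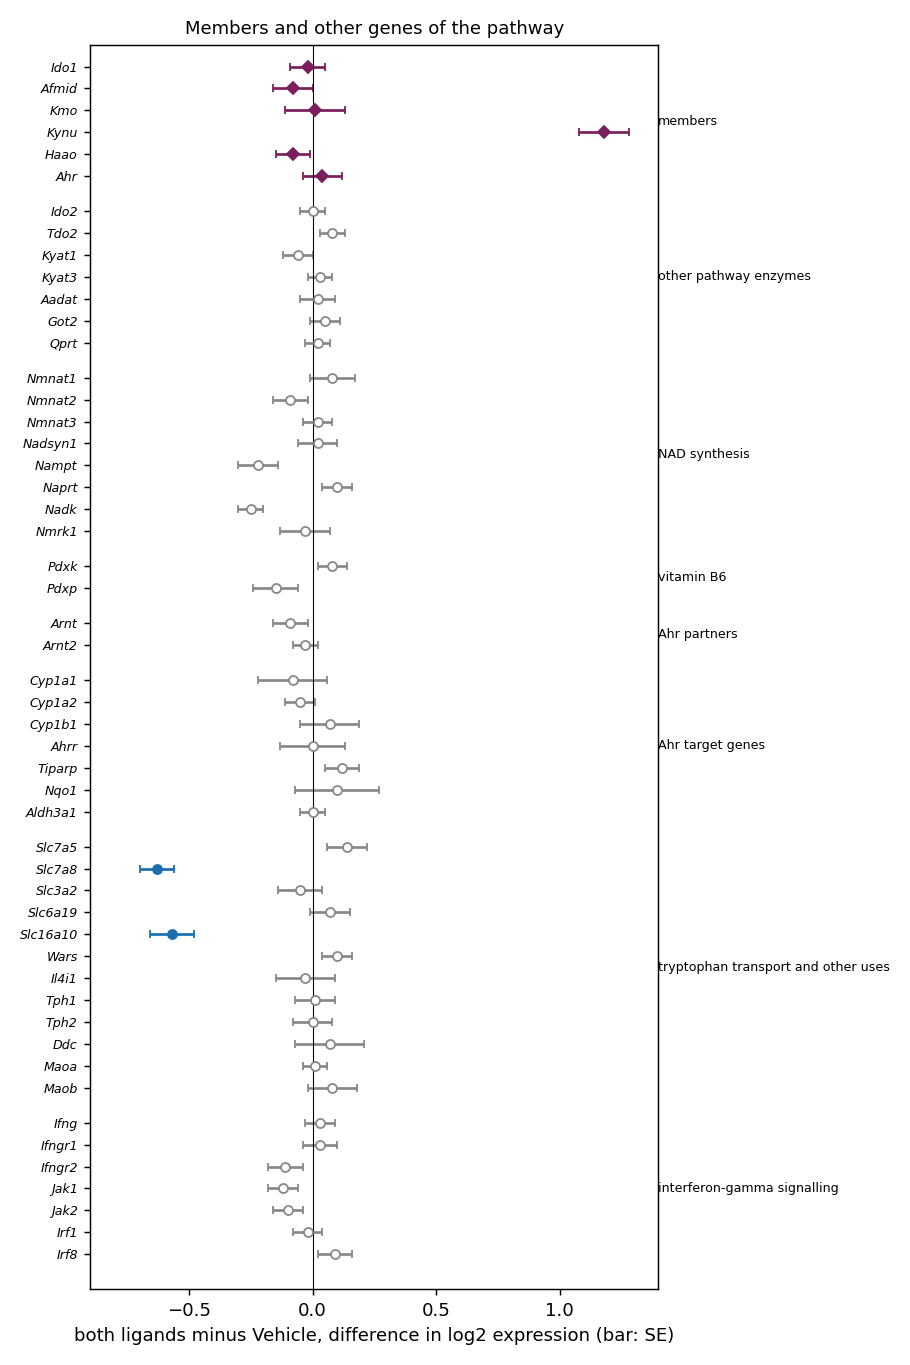
Difference between both ligands (6 arrays) and Vehicle (3 arrays) in log2 expression, with SE bars, for the 6 members (diamonds, shown as a description) and the 45 other genes measured (circles, filled where the limma adjusted p was under 0.05). Kynu lies at 1.18, the other members within 0.08 of 0, and the transporters Slc7a8 (-0.63) and Slc16a10 (-0.57) are the filled circles.

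Kynu and Kmo are made by macrophages as well as by liver and kidney, and macrophage transcripts were present on every array and moved apart with the ligands. Of 10 macrophage markers 1 rose (Cx3cr1) and 4 fell (Adgre1, Itgam, Lyz2 and Cd14) for both ligands by limma, beside 0.434% of all genes called higher and 1.07% lower. The log2 of the list's summed level was 14.15 to 14.29 with Vehicle, 14.04 to 14.06 with Shh and 13.93 to 14.02 with Ihh, and 0 of the 10 lay below the mark on all arrays. Csf1r, the growth factor receptor that defines macrophages, read 12.04 to 12.33 log2 with Vehicle and 12.00 to 12.35 with the ligands. The summed level follows its brightest markers, Lyz2 and Csf1r. For both ligands 5 of the 10 markers had a difference above 0, so the list had no single direction. The part of macrophages in the difference of Kynu was not tested.

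Markers of the other cell types had no calls for both ligands. For dendritic cells 0 of 7 measured markers passed limma (2 were higher and 1 lower before adjustment, at p under 0.05, beside 5.25% of all genes higher and 8.41% lower), and they had a log2 summed level of 8.83 to 8.92 with Vehicle, 8.91 to 9.08 with Shh and 8.89 to 8.97 with Ihh, and Xcr1 and Cd209a below the mark on all arrays. Of 10 epithelium markers limma called 0, also 0 at an unadjusted p under 0.05, and their summed level ran from 9.63 to 11.93 with Vehicle, 9.72 to 12.02 with Shh and 10.56 to 11.69 with Ihh, with Cdx1 below the mark on all arrays. Summed epithelium levels on arrays 1, 2 and 3 were 11.93, 10.85 and 9.63 with Vehicle, where Kynu read 6.06, 5.86 and 5.90. They were 11.01, 9.72 and 12.02 with Shh, where Kynu read 6.85, 7.13 and 7.36. With Ihh the levels were 11.69, 11.57 and 10.56, beside 7.21, 7.17 and 6.99 for Kynu. The part of epithelium in the difference of Kynu was not tested. For endothelium 0 of 8 markers passed limma (5 were lower and 0 higher before adjustment), and the summed level was 12.25 to 12.51, 11.95 to 12.12 and 11.99 to 12.42. All 8 differences for both ligands lay below 0, with a median of -0.28 log2. For Shh alone 1 marker (Cdh5) was called lower (limma adjusted p = 0.0464), beside 1.73% of all genes called. The part of endothelium in the difference of Kynu was not tested. For neurons and glia 0 of 4 measured markers passed limma (1 was higher and 2 lower before adjustment), with summed levels at 10.39 to 10.71, 10.26 to 10.32 and 10.31 to 10.73. For mesenchyme and smooth muscle 0 of 12 markers passed limma (1 was higher and 3 lower before adjustment).

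RNA quality was read from control probe sets at both ends of Gapdh. The 3' end minus the 5' end was -0.08 to 0.03 log2 on the Vehicle arrays and -0.19 to -0.15 on 5 ligand arrays. On Ihh 1 it was -0.04, within the Vehicle range. Kynu read 7.21 log2 on Ihh 1 and 6.85 to 7.36 on the other 5 ligand arrays. On those 5 arrays this measure moved with the treatment and cannot be told apart from it. The same measure for beta-actin was 0.15 to 0.28 on the Vehicle arrays and 0.12 to 0.18 on the ligand arrays, so the groups overlapped. The part of RNA quality in the difference of Kynu was not tested.

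The genes whose levels were most like those of Kynu over the 9 arrays were Npl (Pearson's r = 0.967), Amz1 (0.964), Olfr67 (0.959), Man2b1 (0.956) and Ltc4s (0.954). These correlations are descriptions over arrays that share the treatment groups, which by themselves give a high r to any gene that separates ligand from Vehicle. Npl, a lyase that breaks down sialic acid, lay at 9.49 to 9.68 log2 with Vehicle and 10.11 to 10.31 with the ligands. Ltc4s, which makes leukotriene C4, lay at 6.36 to 6.69 and 7.73 to 7.89. Man2b1, a lysosomal mannosidase, lay at 9.82 to 9.83 and 10.04 to 10.18, the metalloprotease gene Amz1 at 5.48 to 5.53 and 5.87 to 6.12, and Olfr67 at 3.51 to 3.54 and 3.61 to 3.70, under the mark throughout.

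Within the groups the nearest genes were others. By deviations from the group means, Wscd1 (r = 0.983), Zfp120 (0.976), Rab38 (0.974), Scg3 (0.961) and Wac (0.96) followed Kynu most closely over the 9 arrays, and their own differences for both ligands lay between -0.19 and 0.01 log2. These were the highest r among all genes, and a search of that size over 9 arrays gives some high r by itself. Nothing is read from them. Among the members Haao was nearest by deviations (r = 0.558). Over the levels, r with Kynu was 0.12 for Ahr, -0.0555 for Kmo, -0.173 for Haao, -0.174 for Ido1 and -0.238 for Afmid.

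**Figure D4:**
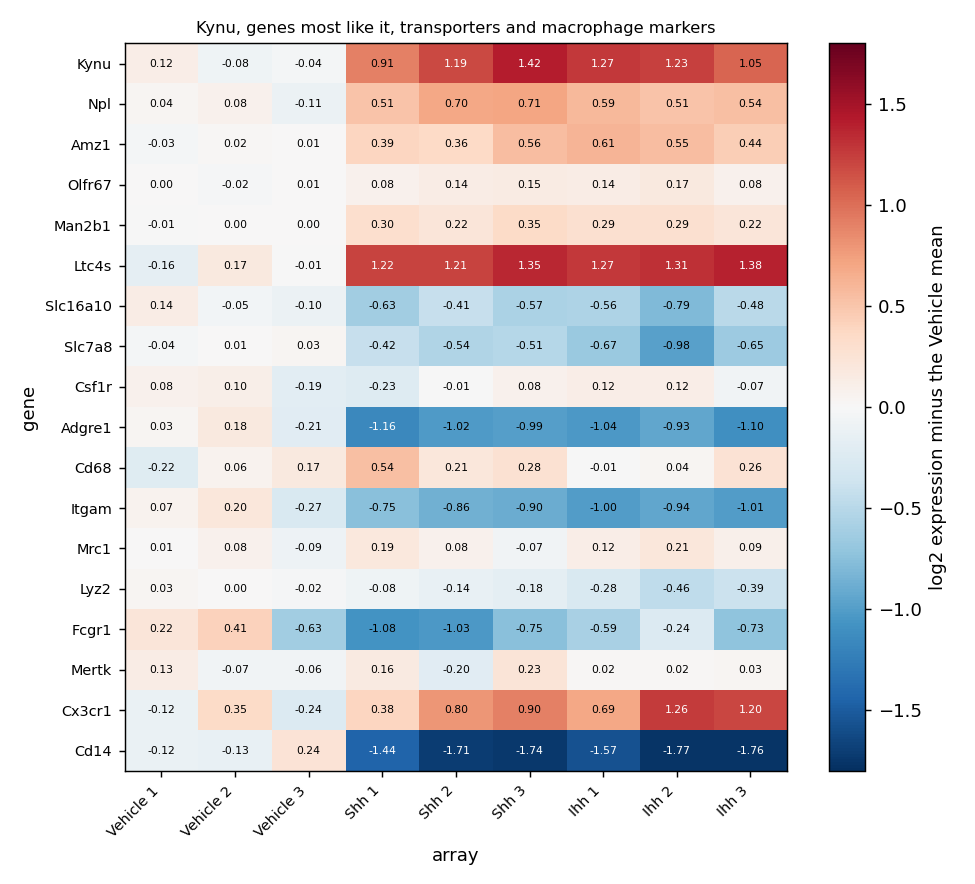
Log2 expression minus the Vehicle mean on each of the 9 arrays (columns) for Kynu, the 5 genes most like it, the transporters called lower and 10 macrophage markers (rows), with the value in each cell, red for above and blue for below the Vehicle mean. Kynu runs from 0.91 to 1.42 on the ligand arrays, Ltc4s from 1.21 to 1.38, Slc7a8 from -0.98 to -0.42 and Adgre1 from -1.16 to -0.93, while Csf1r stays within -0.23 to 0.12.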

How the data were processed

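The 9 arrays held biotin-labelled cRNA from 6 ug of total RNA, per the labels' protocols. The authors deposited log2 values for 45101 probe sets on each array, made with GCOS and RMA (background correction, normalization between arrays and summary of probes) per the submitters' processing notes, no version of which appears in these sources. That they are log2 was read from their range. RMA hides a shift of all genes together.

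Symbols came from the platform annotation (932 probe sets had several, 9160 none, 64 were controls). The Entrez identifiers of the 11 member probe sets all matched a GRCm38.p6 RefSeq table, with 0 symbols changed. A gene was measured by its probe set with the highest mean over 9 arrays. In R 4.3.3, limma 3.58.1 (lmFit, then eBayes) estimated 3 group means from the 9 arrays (6 residual and 3.88 prior degrees of freedom). P-values were two-sided and Benjamini-Hochberg adjusted over 18193 genes, with a threshold of 0.05. Intervals are 95%.

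The members, lists and tests were chosen with earlier results of these data known. Named were all members, list genes called for both ligands or between ligands, otherwise the 2 per list with the smallest p, and the 5 genes most like Kynu by each measure. Ido2, Qprt, Cyp1a1, Cyp1b1, Slc7a5, Slc3a2, Irf1, Ifng and the markers named were picked beyond this rule with their values in view. The labels do not say that same-numbered arrays share a batch. Their deviations correlated in all 3 Vehicle and Ihh pairs (0.23 to 0.54), in 1 of 3 Vehicle and Shh pairs (-0.16 to 0.14) and in 0 of 3 Shh and Ihh pairs (-0.30 to -0.08), counted over 0.1. The fit of all 3 groups therefore used no replicate block, which is an alternative. In simulated data of 18193 genes, limma recovered 91.2% of genes changed 1.5-fold for both ligands against Vehicle with 4.37% false calls, and 88% between Shh and Ihh with 4.39%. Of genes changed 1.25-fold it recovered 48.4% and 38%, so differences of that size are often missed. Results were recomputed with a replicate block, other normalizations, other probe set rules, a filter on dim genes, another variance model, only the groups compared, and each array left out.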

Additional observations from a re-analysis of the deposited data

Results flagged for a closer look

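Cyp1a2, a cytochrome P450 target of Ahr, was 0.20 log2 higher with Shh than with Ihh. It stood out because every Shh array lay above the Vehicle mean (4.50 to 4.57 against 4.48 log2) and every Ihh array below it (4.26 to 4.39). The Vehicle arrays themselves read 4.36, 4.49 and 4.60, so all Shh arrays lay within their range, and Shh minus Vehicle was 0.05 ± 0.07 (SE). The difference between the ligands did not pass over all genes (limma adjusted p = 0.319), and all values lay under the array medians.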

How the results depend on the processing

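Of the members' differences from Vehicle, those of Kynu moved by more than the spread between replicates when the mean of its probe sets was used (0.73 log2 for both ligands, 0.75 for Shh and 0.71 for Ihh), and all others moved by less under every alternative that gave a value. The fit with the replicate block called Kynu and no other member in each ligand comparison, and called 407 genes lower for Shh in place of 225. It changed no other count by more than 1.5 times, and for Ihh against Vehicle, where same-numbered arrays deviated together, it called 32 genes higher in place of 35 and 90 lower in place of 83. Between Shh and Ihh no member was called under any alternative. Small differences turned sign: Kynu from -0.01 to 0.04 with quantile normalization again and to 0.04 with the mean of its probe sets, and Kmo from 0.00 to -0.05 with quantile normalization again and to 0.00, now below 0, with arrays centred on their medians. Without single arrays Kynu ranged from -0.13 to 0.12, Kmo from -0.13 to 0.12 and Ido1 from -0.04 to 0.11. For both ligands Jak1 turned to 0.05 with the mean of its probe sets, Cyp1a2 to 0.01 without Vehicle 3 (-0.11 to 0.01 over single arrays left out) and Kyat1 to 0.01 without Vehicle 2 (-0.12 to 0.01). The cause was not tested.

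With only the groups compared, fewer arrays set the spread, and 20 genes were called higher for Ihh in place of 35, 55 for Shh in place of 89 and 0 between the ligands in place of 2. The trended and robust prior called 1 gene lower with Shh than with Ihh in place of 0. Without single arrays, calls for both ligands ranged from 27 to 70 higher (79 with all arrays) and 72 to 349 lower (195), for Shh from 18 to 146 higher (89) and 62 to 529 lower (225), for Ihh from 10 to 31 higher (35) and 43 to 198 lower (83), and between the ligands from 1 to 2 higher (2). The highest counts of lower genes (349, 529 and 198) came without Vehicle 3, and the lowest without Vehicle 2 (72), Vehicle 1 (62) and Ihh 2 (43). The list genes called lower ranged from 1, without Vehicle 1 or Vehicle 2, to 3 without Vehicle 3 (2 with all arrays). Kynu was the member called against Vehicle in all of these fits. It is the gene that the choice was built on, so nothing is read from these calls. The filter on dim genes left out Ido1, Afmid, Kmo and Haao, so it gave no value for them. Of the list genes that the naming rule picked, it left out Slc7a8, Tdo2, Kyat1, Pdxp and Cyp1a2. List genes dimmer than Slc7a8, such as Ido2, Cyp1a1 and Ifng, were left out as well. Low signal limits what could be seen in these genes.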
